A study of Oryza sativa with 20 samples.

Results

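The tonoplast intrinsic proteins (TIPs) are the aquaporins of the vacuole membrane. The 5 TIP genes described here are TIP1-1 (LOC4331608, LOC_Os03g05290, chromosome 3), TIP1-2 (LOC4324303, LOC_Os01g74450, chromosome 1), TIP2-1 (LOC4330207, LOC_Os02g44080, chromosome 2), TIP2-2 (LOC4340941, LOC_Os06g22960, chromosome 6) and TIP4-1 (LOC4338163, LOC_Os05g14240, chromosome 5). They were taken by gene symbol from the 21237 gene rows of a count table of rice roots, and all 5 were found. All are protein-coding genes, and all passed the filter on low counts.

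Total RNA sequencing of roots covered 5 cultivars of cultivated rice, Oryza sativa, with 4 libraries each and 20 in all. Azucena is an upland tropical japonica cultivar and Bala an upland indica cultivar. The other 3 cultivars, Moddai Karuppan, Niyan Wee and Sarali, are read here as those that the study's title calls Sri Lankan and Indica II. No treatment, plant age or growth stage is given in the labels, and nothing there says that the 4 libraries of a cultivar came from separate plants, so p-values measure the spread between these libraries. Each group stands for a single cultivar, so a difference between groups is one between those cultivars and not between japonica and indica rice at large.

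Most of the volume of a mature root cell is vacuole, and TIPs let water, and in several cases small neutral solutes, pass between the vacuole and the cytosol. In Arabidopsis, members of the TIP1, TIP2 and TIP4 groups also carry urea, and members of the TIP2 group carry ammonia. TIP transcripts are abundant in roots, where cells expand by filling their vacuoles. The question asked of these 5 genes was how far their root levels differ among the cultivars, and how far among libraries of a single cultivar.

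Library totals lay between 23444550 and 31996643 counts. Ribosomal RNA took from 4.07% of them in Niyan Wee replicate 1 to 84.6% in Bala replicate 4, and the other genes kept 28063068 and 3813615 counts in these libraries. Counts of single TIPs ran from 214 for TIP1-2 in Azucena replicate 4 to 43978 for TIP2-2 in Moddai Karuppan replicate 3, so counting error was small beside the spread between libraries. The root label was checked against marker genes. The endodermis and exodermis genes CASP1, LSI2, NIP2-1 and SCR1 were all detected in every cultivar and together averaged 349 ± 289 CPM in Azucena (SD, n = 4) and 768 ± 406 CPM in Bala. They averaged 156 ± 60.1 CPM in Moddai Karuppan, 346 ± 161 CPM in Niyan Wee and 265 ± 143 CPM in Sarali. LSI2 and NIP2-1 made up most of these sums, with 331 and 404 CPM in Bala beside 4.03 CPM of SCR1. CASP1 alone averaged 38.4 ± 27.6 CPM in Azucena and 29.1 ± 15.4 CPM in Bala, the reverse order of the sums. RBCS, the leaf marker that was matched, did not exceed 3.61 CPM in any library. CPM is the count divided by the library's total, on the usual scale, after TMM scaling, which evens out differences in library composition.

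Levels of TIP1-2, a member of the TIP1 group, were lowest in Azucena. TIP1-2 stood at 14.2, 6.6, 14.6 and 7.41 CPM in Azucena replicates 1 to 4, against 43.4, 13.5, 42.1 and 44.9 CPM in Bala replicates 1 to 4. It stood at 20.1, 38.9, 17.5 and 34.7 CPM in Moddai Karuppan, at 24.1, 15.2, 35.2 and 42.0 CPM in Niyan Wee, and at 27.5, 62.2, 36.3 and 70.4 CPM in Sarali. All 4 Azucena libraries lay below every library of Moddai Karuppan, Niyan Wee and Sarali, while Bala replicate 2 lay inside the Azucena range. The other 3 Bala libraries stood close together above 42 CPM. In order of the mean, TIP1-2 averaged 10.7 ± 4.29 CPM in Azucena, then 27.8 ± 10.6 in Moddai Karuppan, 29.1 ± 11.9 in Niyan Wee, 36.0 ± 15.0 in Bala and 49.1 ± 20.5 in Sarali (SD, n = 4 each), and of these neighbours only Azucena and Moddai Karuppan passed the test.

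TIP1-2 was the 1 TIP of 5 that differed among the 5 cultivars (edgeR quasi-likelihood F test, adjusted p = 0.00841). Of all 21225 genes tested, 28.4% passed the same test, so a count of 1 in 5 lies near the background. Cultivar held 61.2% of the variance of TIP1-2 on the log2 scale, against a median of 36.9% over the 9445 genes that averaged 10 CPM or more.

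Against the mean of the other 4 cultivars, TIP1-2 was lower in Azucena by a log2 fold change of −1.69 ± 0.366 (SE, adjusted p = 0.00209), a level of 0.309-fold. It was again the only one of 5 TIPs to pass, beside 20.2% of all genes, the same share. The change was −1.47 (adjusted p = 0.126) in pool P1 alone, which holds replicates 1 and 2 of each cultivar, and −1.84 (adjusted p = 0.019) in pool P2 alone, which holds replicates 3 and 4. This call was kept whichever single library was omitted, with log2 fold changes between −1.88 and −1.52. In the same comparison 3 of 11 cell division markers (CDKB2-1, CYCB1-1 and MCM6) and 1 of 4 endodermis and exodermis markers (CASP1, log2 fold change 1.56, adjusted p = 0.018) were higher in Azucena. Against Sarali alone, 2 of 11 and again CASP1 (2.26, adjusted p = 0.0201) were higher in Azucena, where 18% of all genes passed. Their part in the TIP1-2 difference was not tested.

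In the pairwise tests Azucena had 0.218-fold the Sarali level of TIP1-2 (adjusted p = 0.000974, where 18% of all genes passed), and this call was kept whichever library was omitted. It had 0.298-fold the Bala level (adjusted p = 0.00774, where 13.7% passed), and this call ended when the fit took in the libraries' rRNA share (−1.25, adjusted p = 0.101) or left out Bala replicates 3 and 4 together (−1.42, adjusted p = 0.105). Ribosomal RNA made up 40.8% to 60.4% of the counts in Azucena and 62.8% to 84.6% in Bala.

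The level was 0.367-fold that of Niyan Wee (adjusted p = 0.0238, where 14% passed) and 0.385-fold that of Moddai Karuppan (adjusted p = 0.0243, where 20% passed). Both calls ended without Azucena replicate 2 (adjusted p = 0.082 and 0.0701) or replicate 4 (0.0813 and 0.0738). The first also ended without Niyan Wee replicate 3 (0.0629) or 4 (0.0773), and the second without Moddai Karuppan replicate 2 (0.0755) or 4 (0.0624). In pool P1 alone none of the 4 pairs passed, and Azucena over Niyan Wee was −0.88 there (adjusted p = 0.507). In pool P2 alone 3 did, all but that with Moddai Karuppan (−1.25, adjusted p = 0.124). Among Bala, Moddai Karuppan, Niyan Wee and Sarali no pair passed in TIP1-2. The widest gap, Moddai Karuppan over Sarali, was −0.82 on the log2 scale (adjusted p = 0.585).

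**Figure D1:**
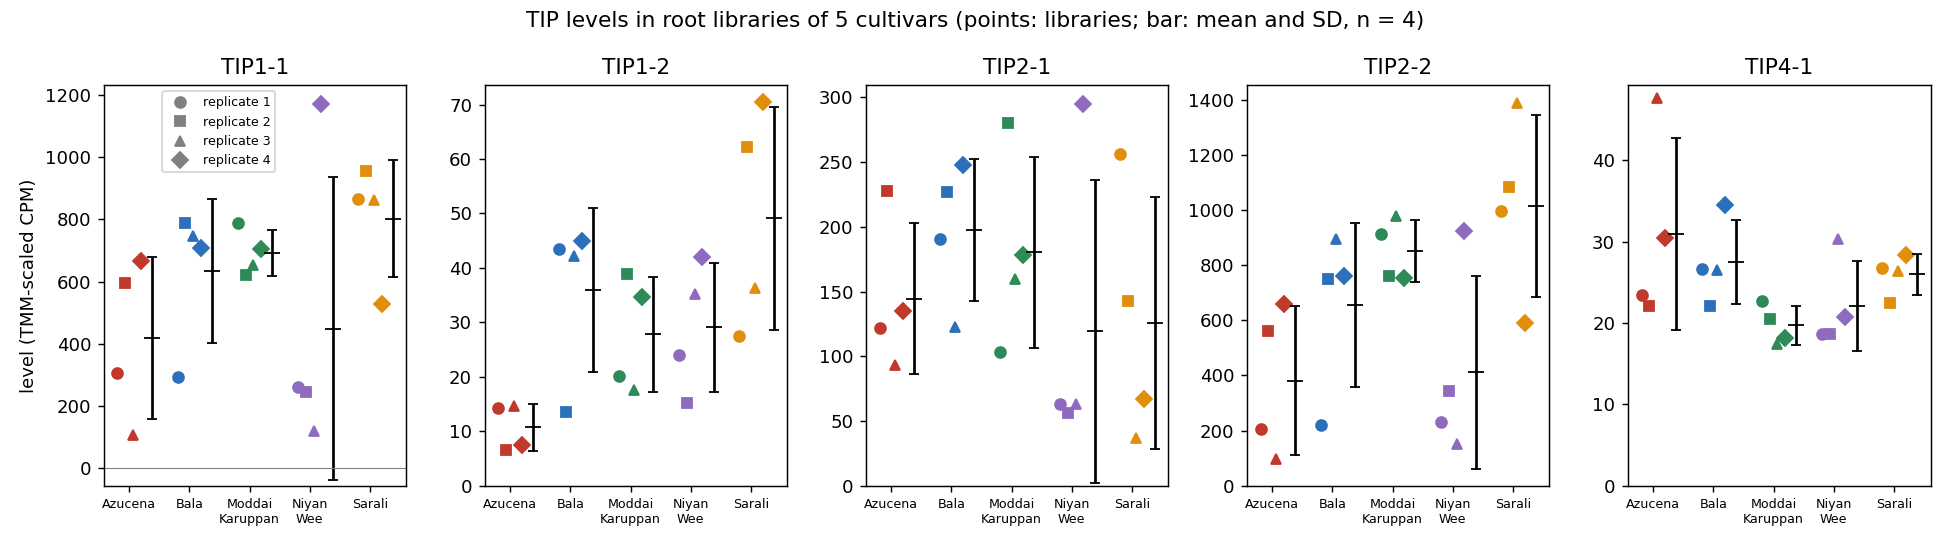
TMM-scaled CPM (y axis) of each TIP in each of the 20 libraries, by cultivar (x axis) with a marker for each replicate, beside the mean and SD of 4 libraries. TIP1-2 lies between 6.6 and 14.6 CPM in Azucena, and TIP1-1 runs from 119 to 1172 CPM within Niyan Wee.

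TIP4-1 was higher in Azucena than in Moddai Karuppan and passed no other edgeR test. It stood at 23.5, 22.1, 47.7 and 30.5 CPM in Azucena replicates 1 to 4, against 22.7, 20.5, 17.4 and 18.2 CPM in Moddai Karuppan. Means were 27.4 ± 5.17 CPM in Bala, 22.1 ± 5.56 in Niyan Wee and 26.0 ± 2.49 in Sarali (SD, n = 4 each). Azucena replicate 3 was the highest of all 20 libraries, and Azucena replicates 1 and 2 overlapped with Moddai Karuppan or lay close to it. In Azucena replicate 3 the endodermis and exodermis markers summed to 775 CPM, against 141 to 275 CPM in the other 3 Azucena libraries. The xylem markers, cellulose synthases of the secondary wall, summed to 186 CPM in it, against 467 to 811 CPM in the others. The part of either in the TIP4-1 level was not tested.

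TIP4-1 was 1.57-fold higher in Azucena than in Moddai Karuppan (log2 fold change 0.65, 95% interval 0.197 to 1.10, adjusted p = 0.0398). The log2 fold change was 0.36 (adjusted p = 0.201) without Azucena replicate 3, and the call also ended without Azucena replicate 4 (0.0676) or Moddai Karuppan replicate 2 (0.0703), 3 (0.102) or 4 (0.0895). In pool P1 the difference was 0.12 (adjusted p = 0.792) and in pool P2 1.13 (adjusted p = 0.0396). The test among all 5 cultivars was not passed (adjusted p = 0.131), nor was that of Azucena against the mean of the 4 others (0.39, adjusted p = 0.108), although this last one passed without Azucena replicate 2 (0.52, adjusted p = 0.0478).

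A ratio of TIP1-2 to TIP4-1 taken within each library does not depend on how libraries are scaled, apart from the small count added before taking logs. Its log2 value averaged −1.55 ± 0.567 in Azucena (n = 4) and 0.457 ± 0.599 in the other libraries (n = 16). The Azucena libraries lay between −2.03 and −0.727 and the others between −0.703 and 1.47, so the groups did not overlap, though Azucena replicate 1 and Bala replicate 2 nearly touched. The difference of −2.01 was the most extreme of all 4845 arrangements of the libraries (exact permutation test, two-sided, p = 0.000206, the smallest this number of libraries allows). The test shuffled libraries freely over cultivars, so its p-value is over libraries and not over cultivars. This ratio was the 1 of 10 between TIPs that passed after adjustment (adjusted p = 0.00206). Its difference stayed between −2.28 and −1.84 when any single library was left out. In pools P1 and P2 alone the difference was −1.52 and −2.49, each with exact p = 0.0222, the smallest that these numbers of libraries allow.

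The ratio of TIP1-2 to TIP2-1 had a log2 difference of −1.74 between Azucena and the others (exact permutation p = 0.0142) and did not pass after adjustment (adjusted p = 0.0712). It did so without Azucena replicate 3 (−2.11, adjusted p = 0.0464) or Bala replicate 2 (−1.88, adjusted p = 0.0297). The ratio of TIP1-1 to TIP2-2 had a difference of 0.36 (exact permutation p = 0.0438, adjusted p = 0.109).

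**Figure D2:**
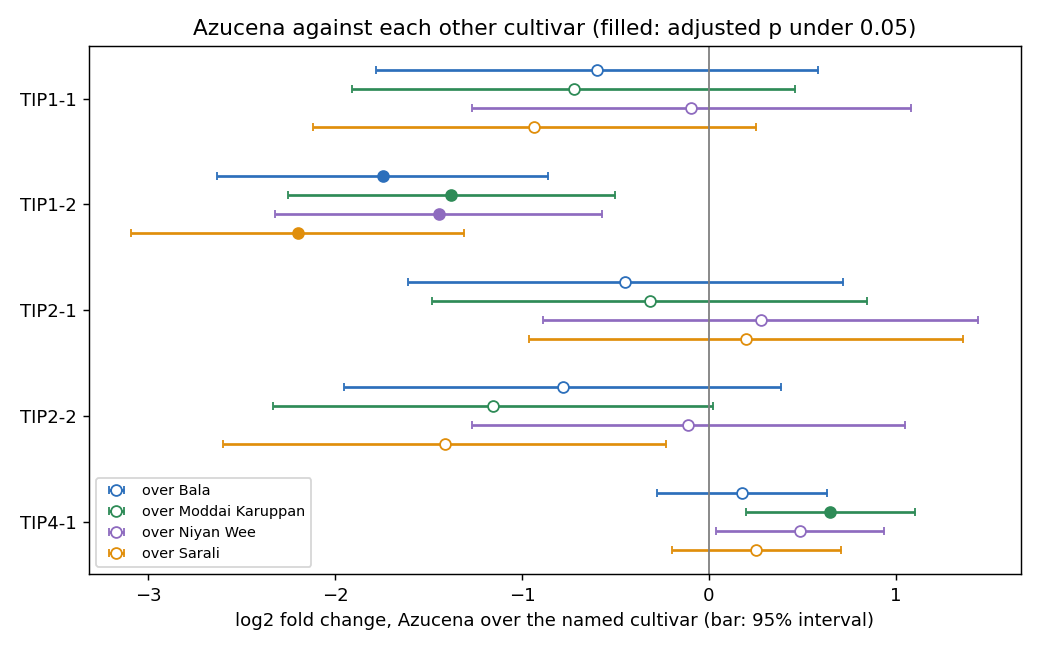
Log2 fold change (x axis) of Azucena over each of the 4 other cultivars for each TIP (rows), with 95% intervals, where filled points passed at an adjusted p under 0.05. All 4 TIP1-2 points are filled and lie between −2.20 and −1.38, and of the other points only TIP4-1 over Moddai Karuppan is filled, at 0.65.

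TIP1-1 and TIP2-2 varied widely among libraries of the same cultivar, and differences between cultivars held 33.3% and 44.4% of their log2 variance. The median share over genes that averaged 10 CPM or more, 36.9%, lay between these values. TIP1-1 stood at 307, 597, 106 and 668 CPM in Azucena replicates 1 to 4, at 293, 790, 748 and 707 CPM in Bala, and at 790, 623, 652 and 706 CPM in Moddai Karuppan. It stood at 260, 244, 119 and 1172 CPM in Niyan Wee and at 866, 955, 864 and 527 CPM in Sarali. The highest library came from Niyan Wee and the lowest from Azucena, and the range of each cultivar overlapped with that of every other.

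TIP2-2 stood at 207, 562, 97.5 and 659 CPM in Azucena, at 220, 748, 895 and 760 CPM in Bala, and at 913, 759, 977 and 753 CPM in Moddai Karuppan. It stood at 231, 342, 152 and 924 CPM in Niyan Wee and at 998, 1084, 1387 and 590 CPM in Sarali. The same libraries were low as for TIP1-1, namely Azucena replicates 1 and 3, Bala replicate 1 and Niyan Wee replicates 1 to 3.

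Neither gene passed among the 5 cultivars, with adjusted p = 0.538 for TIP1-1 and 0.172 for TIP2-2. From the lowest mean to the highest, TIP2-2 averaged 381 ± 271 CPM in Azucena, 412 ± 350 in Niyan Wee, 656 ± 298 in Bala, 850 ± 112 in Moddai Karuppan and 1015 ± 329 in Sarali (SD, n = 4 each). TIP1-1 kept the same order, with 420 ± 261 CPM in Azucena, 449 ± 486 in Niyan Wee, 635 ± 230 in Bala, 693 ± 73.5 in Moddai Karuppan and 803 ± 189 in Sarali. For neither gene did neighbours in this order pass the test. For TIP2-2 the gap between the ends, Azucena over Sarali, was −1.41 on the log2 scale with a 95% interval of −2.60 to −0.228 (adjusted p = 0.0937, and 0.0368 by DESeq2). For TIP1-1 Azucena over the mean of the others was −0.59 with a 95% interval of −1.56 to 0.382, which holds both an equal level and a clearly lower one. It was −0.27 without Azucena replicate 3, −0.31 without Niyan Wee replicate 4 and −0.91 without Azucena replicate 4, and passed in none of these.

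These tests depended on Niyan Wee replicate 4. Without it, 3 of 5 TIPs passed among the 5 cultivars, with adjusted p = 0.0316 for TIP1-1, 0.0315 for TIP2-2 and 0.00788 for TIP1-2, where 28.5% of all genes passed. Then TIP1-1 was also higher in Bala than in Niyan Wee and lower in Niyan Wee than in Sarali, with log2 fold changes (Bala over Niyan Wee, Niyan Wee over Sarali) of 1.61 and −1.95 (adjusted p = 0.0377 and 0.034, where 10.4% and 2.91% of all genes passed). In that library ribosomal RNA made up 56.2% of the counts and the cell division markers summed to 175 CPM, against 4.07% to 44% and 180 to 289 CPM in the other 3 Niyan Wee libraries. The endodermis and exodermis markers summed to 558 CPM in it, against 168 to 334 CPM in the others. The 15 other aquaporins summed to 2753 CPM in it, against 936 to 1623 CPM. The part of any of these in the TIP levels was not tested.

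The pair moved together from library to library. Once each cultivar's mean was taken out, log2 levels of TIP1-1 and TIP2-2 over the 20 libraries had Pearson's r = 0.949 (permutation within cultivars, p = 0.00021, adjusted over 10 pairs 0.0021) and Spearman's rho = 0.91 (p = 0.00044, adjusted 0.0044). The sign was positive within each of the 5 cultivars, and r was 0.949 in pool P1 and 0.972 in pool P2. Without Azucena replicate 3 and Niyan Wee replicate 4, the libraries farthest from the median, r was 0.926.

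TIP1-1 left a gap between 307 and 527 CPM, with 6 libraries below it and 14 above, and TIP2-2 lay between 97.5 and 342 CPM below the gap and between 562 and 1387 CPM above it. The relation over all 20 libraries therefore rests in part on this gap. Without removal of cultivar means, r was 0.796 (rho = 0.429) in the 6 libraries below it and 0.688 (rho = 0.745) in the 14 above. As the gap was found in the values of TIP1-1 itself, these values are descriptions.

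**Figure D3:**
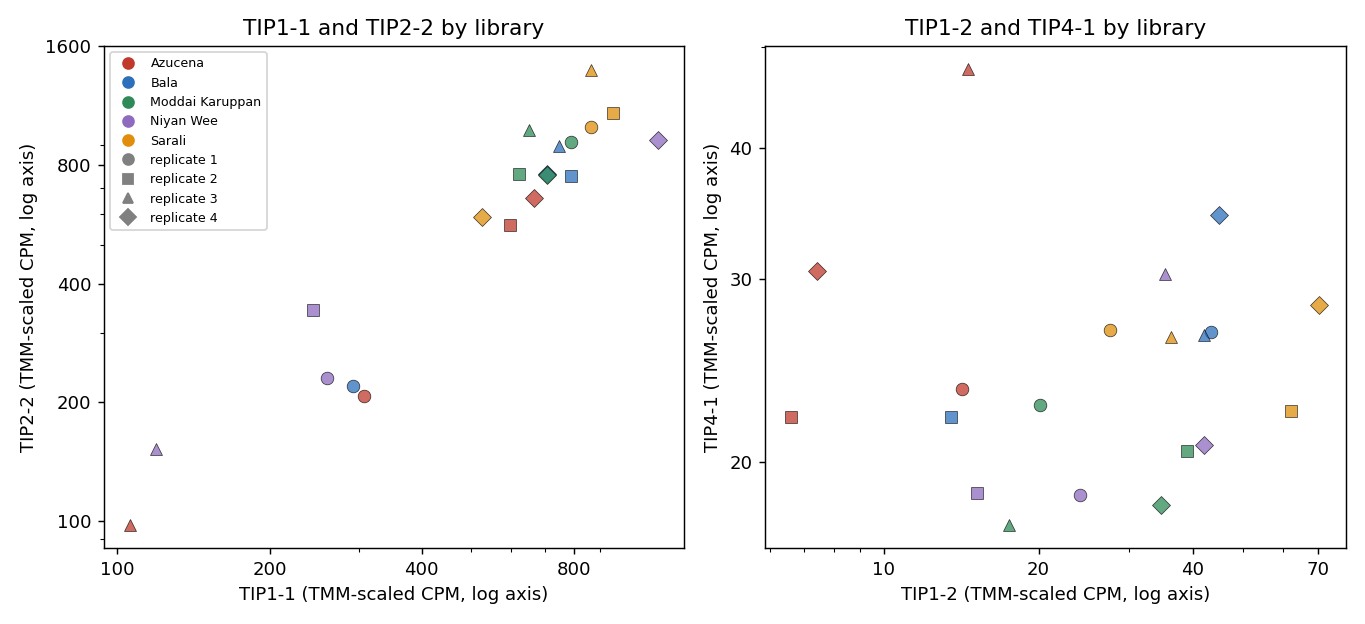
TMM-scaled CPM of TIP2-2 against TIP1-1 (left) and of TIP4-1 against TIP1-2 (right) in 20 libraries, log axes, with colours for cultivars and marker shapes for replicates. On the left 6 libraries lie at or below 307 CPM of TIP1-1 and 342 CPM of TIP2-2 and 14 lie above, where Bala and Moddai Karuppan replicate 4 nearly coincide, and on the right the Azucena points lie to the left of most others.

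No other pair of TIPs passed. TIP1-1 with TIP2-1 had r = 0.531 (permutation p = 0.0409, adjusted 0.204; rho = 0.448, p = 0.0622), and r was 0.0989 without the same pair of libraries. It was 0.24 (permutation p = 0.281) without Niyan Wee replicate 4 alone and 0.519 without Azucena replicate 3 alone, so its size depended mostly on Niyan Wee replicate 4. TIP4-1 ran against TIP1-1 (r = −0.514, permutation p = 0.132; rho = −0.328, p = 0.253) and TIP2-2 (r = −0.442, p = 0.192; rho = −0.281, p = 0.336) without passing. Without Azucena replicate 3 these were −0.235 and −0.148, so their size over all libraries depended on that library. In pool P1, which does not hold it, r was −0.634 and −0.612, and in pool P2 −0.896 and −0.915. TIP1-2 had r = −0.228 with its close relative TIP1-1 (permutation p = 0.384; rho = −0.256, p = 0.331), within pool P1 r = −0.775 and within pool P2 −0.317. Without Niyan Wee replicate 4 it was −0.556 (permutation p = 0.0277, adjusted 0.0967), and without Azucena replicate 3 it was −0.117.

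Ranked by r over the 20 libraries without removal of cultivar means, TIP2-2 was first of 9444 other genes for TIP1-1 (r = 0.955), and TIP1-1 first for TIP2-2. The plasma membrane aquaporin PIP2-1 had rank 3 for TIP1-1 (r = 0.926) and rank 44 for TIP2-2 (r = 0.823). Aquaporin ranks were looked up after the values had been seen, and all r values of this kind share libraries and scaling and are descriptions. For TIP1-2 the highest aquaporin was PIP1-3 (rank 161, r = 0.653), for TIP2-1 the silicon channel NIP2-2 (rank 7, r = 0.754), and for TIP4-1 the silicon channel NIP2-1 (rank 358, r = 0.513).

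Of the 62 genes with a symbol in the reference table and at least 10 CPM, those most like TIP1-1 were the class III peroxidase PRX112 (r = 0.846), VIPP1 (0.68), the receptor-like kinase RLK10 (0.654), the calcium-dependent protein kinase CPK23 (0.576) and LPR1 (0.565). For TIP2-2 they were PRX112 (0.76), VIPP1 (0.706), CPK23 (0.667), GLYI-11 (0.593) and RLK10 (0.576). For TIP1-2 they were PHR2, a regulator of the phosphate starvation response (0.651), the heat shock factor HSFA2D (0.489), CPK23 (0.48), TGA2.2 (0.47) and VIPP1 (0.437). Once cultivar means were taken out, CPK23 ran against TIP1-2 (r = −0.539), as did VIPP1 (−0.272), and PHR2 stood at 0.197, so their likeness to TIP1-2 lay between cultivars. For TIP2-1 they were PRX112 (0.519), WRKY51 (0.489), RLK10 (0.477), DCD1 (0.459) and CWZF7 (0.434), and for TIP4-1 the chitin receptor CEBIP (0.699), HIRL1 (0.524), MYBS2 (0.484), TPR3 (0.44) and NCL1 (0.437). For these TIPs other than TIP1-2, r without cultivar means lay between 0.279 and 0.826. Among all 9444 genes the named ones ranked from 10 for CEBIP to 913 for VIPP1 with TIP1-2, so most were not close to the top.

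TIP2-1 did not pass among the cultivars (adjusted p = 0.707). It stood at 122, 228, 93.1 and 135 CPM in Azucena, at 191, 227, 123 and 248 CPM in Bala, and at 103, 280, 160 and 178 CPM in Moddai Karuppan. It stood at 62.8, 56.6, 62.8 and 295 CPM in Niyan Wee and at 256, 143, 36.9 and 66.9 CPM in Sarali, so that the highest library came from Niyan Wee and the lowest from Sarali. Its means ran from 119 ± 117 CPM in Niyan Wee, 126 ± 97.8 in Sarali, 145 ± 58.5 in Azucena and 180 ± 73.7 in Moddai Karuppan to 197 ± 54.9 in Bala (SD, n = 4 each), and no pair passed. Azucena over the mean of the others was −0.073 on the log2 scale, with a 95% interval of −0.996 to 0.851, and the sign turned when 1 of several libraries was left out. Without Niyan Wee replicate 4, TIP2-1 was higher in Bala than in Niyan Wee (log2 fold change 1.70, adjusted p = 0.0377).

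The spread within cultivars was wide for 4 of the 5 TIPs. The median coefficient of variation over cultivars was 36.2% for TIP1-1, 40.8% for TIP1-2, 40.9% for TIP2-1 and 45.4% for TIP2-2, but 18.9% for TIP4-1. The median over genes with at least 10 CPM was 16%, and over 13 other aquaporins of that level 36.3%. For TIP1-1 it was 108% in Niyan Wee and 10.6% in Moddai Karuppan.

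No TIP passed among Moddai Karuppan, Niyan Wee and Sarali, where 4.02% of all genes passed. By edgeR 0 of 5 passed, with 0 at an unadjusted p under 0.05, and DESeq2 called 0. The nearest was TIP2-2 (adjusted p = 0.409), with Niyan Wee over Sarali at −1.30 on the log2 scale (95% interval −2.48 to −0.12, adjusted p = 0.294). Bala against the mean of these 3 cultivars gave 0 of 5 as well, with 0 at an unadjusted p under 0.05 and 0 by DESeq2, where 18% of all genes passed. Of the 50 tests of TIPs between pairs of cultivars 5 passed, namely the 4 of TIP1-2 and the 1 of TIP4-1 with Azucena on one side, and 9 had an unadjusted p under 0.05. In the pairs with Azucena, the share of all genes that passed was 13.7% for Bala and 20% for Moddai Karuppan. It was 14% for Niyan Wee and 18% for Sarali, so the count of TIP calls is not far from the background. In the 6 pairs without Azucena, no TIP passed. The share of all genes that passed was 15.2% for Bala over Moddai Karuppan, 11.1% for Bala over Niyan Wee and 11.5% for Bala over Sarali. It was 2.37% for Moddai Karuppan over Niyan Wee, 1.75% for Moddai Karuppan over Sarali and 2.88% for Niyan Wee over Sarali.

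Over the 5 TIPs the median log2 fold change of Azucena over the mean of the others was −0.589, and 1 of 5 was positive. Over all genes tested the median was 0.0184. Of 15 other aquaporins (PIP, NIP and SIP genes) 2 differed among the cultivars, beside 28.4% of all genes, NIP2-1 (adjusted p = 0.0258) and PIP2-5 (0.013), and between Azucena and the mean of the others 1 rose (SIP1-1, 0.32 on the log2 scale, adjusted p = 0.0467) and 0 fell, beside 20.2% of all genes.

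Of 11 other genes of the vacuole membrane 4 differed among the 5 cultivars, a share not far from the 28.4% of all genes. They were the calcium/proton exchangers CAX1B (adjusted p = 0.000945) and CAX2 (0.0165), the vacuolar iron transporter VIT1 (0.0162) and the sucrose carrier SUT2 (0.049). The 11 are the genes of a longer planned list that were matched by name. Vacuolar pyrophosphatase and vacuolar ATPase genes were on that list, and none was matched. VIT1 was low, with means from 0.487 CPM in Moddai Karuppan to 2.38 CPM in Azucena. CAX1B stood at 3.13 ± 0.962 CPM in Azucena, 2.89 ± 0.978 in Bala and 2.55 ± 1.03 in Niyan Wee, against 0.818 ± 0.325 in Moddai Karuppan and 0.713 ± 0.356 in Sarali (SD, n = 4 each). In Azucena over the mean of the others 3 of the 11 rose, CAX1B (1.12 on the log2 scale), CAX2 (0.32) and VIT1 (1.44), and 1 fell, the metal transporter MTP1 (−0.37, adjusted p = 0.025), where 20.2% of all genes passed. CAX1B was also the only one of the 11 that differed among the Sri Lankan cultivars (adjusted p = 0.014).

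Levels of the TIPs were set beside markers of cell types and the ribosomal RNA share. Cell division markers (11 genes, all detected in every cultivar) summed to between 205 and 290 CPM in Azucena and 179 and 201 CPM in Bala. Their sums lay between 105 and 163 CPM in Moddai Karuppan, 175 and 289 CPM in Niyan Wee, and 126 and 224 CPM in Sarali. Between Azucena and Moddai Karuppan, the pair with the TIP4-1 call, 8 of these 11 rose in Azucena. In that pair 20% of all genes passed in either direction. The part of these markers in the TIP levels was not tested. After removal of cultivar means, none of 15 relations of the TIPs with cell division, endodermis or xylem markers passed. The nearest was TIP1-2 with the endodermis and exodermis markers (r = 0.596, permutation p = 0.0152, adjusted 0.228; rho = 0.582, p = 0.0209), with r = 0.925 in pool P1, 0.57 in pool P2 and 0.43 without Bala replicate 2 and Niyan Wee replicate 2. None of 5 relations with the ribosomal RNA share passed, TIP1-2 being nearest (r = 0.423, permutation p = 0.0968, adjusted 0.435; rho = 0.426, p = 0.117), with r = 0.4 in pool P1, 0.0445 in pool P2 and 0.581 without Bala replicate 2 and Niyan Wee replicate 2. It passed without Niyan Wee replicate 2 (r = 0.588, adjusted p = 0.0265). In roots measured whole, fewer cells of a type and less RNA per cell cannot be told apart.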

How the data were processed

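Root RNA of 20 libraries was sequenced from stranded, ribosomal-RNA-depleted libraries, per the labels' protocols. The labels also call the molecule polyA RNA. Per the submitters' processing notes, HISAT2, edgeR 3.36.0 and build IRGSP-1.0 were used, and no role is stated for them. The counting tool is not given in the sources used here, nor how it treats shared reads. The authors deposited expected counts per gene, of which 7.58% are not whole. TIP1-2 had fractional counts in 4 libraries and no other TIP had any, and how reads of TIP1-1 and TIP1-2 were divided, if any were shared, is not known. Another 2 rows named no gene and held 0 counts, a share of 0.

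The design assumed raw or expected counts, and these were rounded, filtered with filterByExpr at a minimum count of 10 (21225 genes), scaled by TMM with the 23 ribosomal RNA rows kept, and fitted over all libraries with edgeR 4.0.16 (R 4.3.3) quasi-likelihood tests. Adjusted p-values are Benjamini-Hochberg over all genes, with a threshold of 0.05. Ratios and correlations used log2 CPM with a prior count of 2, exact permutation over libraries or 100000 permutations within cultivars. DESeq2 1.42.0 was an alternative. Gene names came from a RefSeq table of another assembly (20839 rows matched), so no coordinates are given. Levels of different TIPs are not compared, because transcript lengths were not used here. Where CPM of different marker genes stand side by side, they show shares of the counts only.

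The labels tag replicate numbers as a batch. Deviations from cultivar means of same-numbered libraries had a mean correlation of 0.0418 over 40 pairs, against −0.0145 over 120 pairs of different numbers.

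The members and lists were chosen with earlier results of these data known. All 5 TIPs were to be named, with up to 4 passing genes of smallest p per list and, for each TIP, the 5 genes with a symbol and at least 10 CPM that had the highest r. A second gene carrying the name SUT2 as a synonym was left out of the vacuole membrane list, and the marker relations were chosen after values had been seen.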

Additional observations from a re-analysis of the deposited data

Results flagged for a closer look

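In 4 of 25 groups of 4 libraries, 1 library stood apart from the other 3 by Dixon's test. Chance gives about 1 in 20 for independent groups of normally distributed values. The TIPs share libraries, so the groups are not independent. The share over all genes was not counted, so the number of flags is not read as a trait of the TIPs. TIP1-1 in Bala replicate 1 was low at 293 CPM, and in Niyan Wee replicate 4 high at 1172 CPM. TIP2-1 was high in the same Niyan Wee library at 295 CPM. TIP1-2 in Bala replicate 2 was low at 13.5 CPM, and this library is the 1 of Bala that overlapped with Azucena.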

How the results depend on the processing

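The number of TIPs that differed among the 5 cultivars (1), of pairwise tests passed (5) and of TIPs that differed between Azucena and the mean of the others (1) stayed within 1.5 times under RLE scaling, no filter, DESeq2, removal of ribosomal RNA rows, the ribosomal RNA share or the pool as a covariate, counts not rounded, and without Bala replicates 3 and 4, or Niyan Wee replicates 2 and 3 with Sarali replicate 3, which earlier results had set apart. With the replicate block they were 1, 5 and 1, and TIP1-2 among the 5 cultivars had adjusted p = 0.0162; the block changed no call. In pool P1 alone, with 2 libraries per cultivar, they were 0, 0 and 0; in pool P2 alone the first was 0 (TIP1-2, adjusted p = 0.0546). Ratios that differed in Azucena were 1. They were 0 in either pool, where a single ratio could not pass. The smallest exact permutation p there, 0.0222, adjusts to 0.222 over the 10 ratios, and TIP1-2 over TIP4-1 had it in both pools. Pools gave no test of correlations, since 2 libraries per cultivar allow too few arrangements. When each library was left out in turn the counts ran from 1 to 3, from 2 to 7 (7 without Niyan Wee replicate 4, 3 when Azucena replicate 2 or Moddai Karuppan replicate 2 or 4 was omitted, 2 when it was Azucena replicate 4) and from 1 to 2 (2 without Azucena replicate 2), ratios from 1 to 2, TIP pairs correlated at 1, and relations with the ribosomal RNA share from 0 to 1. TIPs that differed among the Sri Lankan cultivars, and between Bala and their mean, stayed at 0 under every alternative run. The sign of TIP2-1 in Azucena over the mean of the others turned in pool P1 (0.28), and without Niyan Wee replicate 4 (0.17), Sarali replicate 1 (0.081) or Azucena replicate 3 (0.089), with a range of −0.38 to 0.17 over single libraries left out, and in none of these did it pass. The cause of these changes was not tested. Where few reads remained beside ribosomal RNA, as in Bala replicate 4, single-library values rest on fewer counts.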
